A study of Oryctolagus cuniculus with 24 samples.

Results

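IL16, the gene of interleukin-16, was followed with 1 probe in rabbit peripheral blood mononuclear cells (PBMCs). It is 1 of 28913 genes measured with 42089 probes, 9491 of which have a gene symbol. The probe was taken because the gene number in its description is that of IL16 in the RefSeq gene table. IL16 was selected on its measured levels, for a strong fall after PMA-Ionomycin against mock, so every IL16 value of PMA-Ionomycin samples below is a description without a test. The mock samples were the reference of that choice, so p-values of IL16 against mock are not independent of it and are given as descriptions of the fit, whereas the difference of LPS T24 from T4 is taken between LPS samples alone, with its error pooled over all 24 arrays. The 4 donors, all adult females of the New Zealand White breed, carry the numbers 1, 2, 4 and 5, and PBMCs of each were divided over 6 cultures, so that the same animals are in all groups. Cells were given buffer alone (mock), 1 µg/mL of LPS, or 10 ng/mL of PMA together with 1 µg/mL of ionomycin, and were harvested after 4 h (T4) or 24 h (T24). Each of the 24 cultures was measured on a one-colour array of its own, 8 arrays to a slide. LPS, a cell wall component of Gram-negative bacteria, is sensed through TLR4, whereas PMA activates protein kinase C and ionomycin lets calcium into the cell, which together bypass the antigen receptor of lymphocytes.

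Interleukin-16 is unusual among cytokines because resting lymphocytes already hold its transcript and its precursor. The precursor is cut, and the carboxy-terminal part is secreted and attracts cells that carry its receptor CD4. The remaining part moves to the nucleus, where it is known to bind HSC70 (gene HSPA8), a GABP beta subunit and HDAC3, and to hold T cells out of the cell cycle through the inhibitor p27 (gene CDKN1B).

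The sequence of the probe is shown because all levels below rest on it, with nothing capitalized since no part was singled out.
IL16 probe: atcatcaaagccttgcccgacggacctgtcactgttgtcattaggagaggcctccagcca
It has 60 bases, of which 55% are G or C, and was spotted 1 time on each array. No other probe of the array shares a stretch of 15 bases with it. The files list this probe as unmapped on oryCun2, the rabbit genome build of their headers, so no position is given. Transcripts that differ outside these bases cannot be told apart.

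Between 51.4% and 62.3% of the spots of an array were well above background by the scanner software, with a median of 59.1%. The IL16 spot was well above background on 24 of 24 arrays and was never an outlier. Its median signal was 109 to 207 in PMA-Ionomycin samples at T4 and 390.5 to 647 at T24. In mock and LPS samples it was 791 to 9284, while the local background was 26 to 35 on all arrays. CD14 of monocytes, MS4A1 of B cells, and CD2 and CD8A of T cells were well above background on 24 of 24 arrays, whereas CD4 was on 0, and CD3D, CD3E and CD3G were not found by name. A gene with several probes counted as well above background where most of them were, which for the 2 probes of CD4 means both. Levels are given as log2 of the median signal minus the median of all spots of the array, so that 1 unit is a doubling and 0 is the middle of the array.

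IL16 was most abundant in mock cells and in LPS cells at T24, and least abundant in PMA-Ionomycin cells at T4. In mock cells at T4 its level was 4.85, 5.19, 5.20 and 5.50 in rabbits 1, 2, 4 and 5. In LPS cells at T4 it was 4.20, 4.17, 3.74 and 4.72 in the same order. In PMA-Ionomycin cells at T4 it was 1.03, 0.72, 1.34 and 1.08. At that time the 3 treatments formed 3 separate ranges, with PMA-Ionomycin far below the others. At T24 the level was 4.77, 5.30, 5.18 and 6.50 in mock cells of rabbits 1, 2, 4 and 5. In LPS cells at T24 it was 5.06, 5.68, 4.82 and 6.26. In PMA-Ionomycin cells at T24 it was 2.48, 2.23, 2.83 and 2.85. Mock and LPS cells overlapped at T24, and the PMA-Ionomycin cells stayed below both. In PBMCs, which are a mixture, fewer cells of a type and less RNA per cell cannot be told apart.

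**Figure D1:**
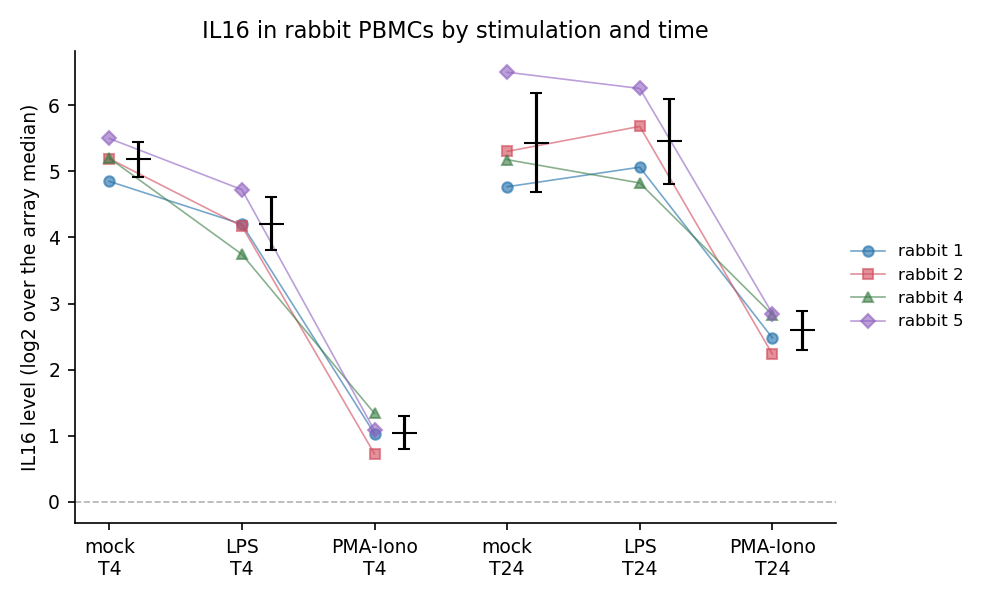
Level of IL16 (log2 over the array median, vertical axis) in the 6 groups. Each coloured symbol is 1 rabbit, lines join the cultures of a rabbit at 1 time, and black bars give the group mean ± SD (n = 4). PMA-Ionomycin samples lie between 0.72 and 1.34 at T4 and between 2.23 and 2.85 at T24, below all mock and LPS samples.

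From the lowest to the highest, the group means were 1.04 ± 0.25 (SD, n = 4) for PMA-Ionomycin at T4, 2.60 ± 0.30 for PMA-Ionomycin at T24, 4.21 ± 0.40 for LPS at T4, 5.19 ± 0.27 for mock at T4, 5.44 ± 0.75 for mock at T24 and 5.46 ± 0.64 for LPS at T24. The ranges of the first 4 groups in this order did not overlap with one another. Mock at T4, mock at T24 and LPS at T24 overlapped, and their means differed by less than the SD of the T24 groups.

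After PMA-Ionomycin, IL16 was lower than in mock cells by 4.14 at T4 on the log2 scale (SE 0.31, 17.7-fold) and by 2.84 at T24 (SE 0.31, 7.15-fold). It was lower in 4 of 4 rabbits at both times. Single rabbits differed from their mock culture by -4.47 to -3.82 at T4, and by -3.65 to -2.29 at T24. Across all genes 22.8% passed the test at T4, 13.4% as higher and 9.35% as lower, and 33.6% at T24, 22.1% as higher and 11.5% as lower, and no test was made of IL16 itself. Groups that lay fully below mock were seen for 9.22% of genes at T4 and 11% at T24. Among 6292 genes that have a symbol and are well above background in at least 1 group, only 3 had a lower log2 fold change at T4, namely CALHM6 (-5.78), TRAF3IP3 (-4.34) and RBP4 (-4.31). The genes next above IL16 were LTB (-4.12), TM4SF5 (-3.99) and CD79B (-3.93). At T24, 72 of these genes lay below IL16. The difference from LPS cells was -3.17 at T4 and -2.86 at T24, and 8.95% and 12.5% of genes lay fully below LPS cells at these times.

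IL16 was higher at T24 than at T4 in PMA-Ionomycin cells of 4 of 4 rabbits, by 1.45 to 1.77 with a mean of 1.56, and 20.4% of all genes were likewise fully above their T4 range. In mock cells the difference between the times was 0.25 (SE 0.31, adjusted p = 0.683). It was -0.08, 0.11 and -0.02 in rabbits 1, 2 and 4, but 1.00 in rabbit 5. The gap between PMA-Ionomycin and mock cells was thus smaller at T24 by 1.30, and it was smaller in each of the 4 rabbits. Within the 3 slides the PMA-Ionomycin difference from mock was -4.47, -3.95 and -4.16 at T4 and -3.36, -2.53 and -2.46 at T24. On no slide did the PMA-Ionomycin and mock cultures of a time come from the same rabbit, so these differences are between animals.

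**Figure D2:**
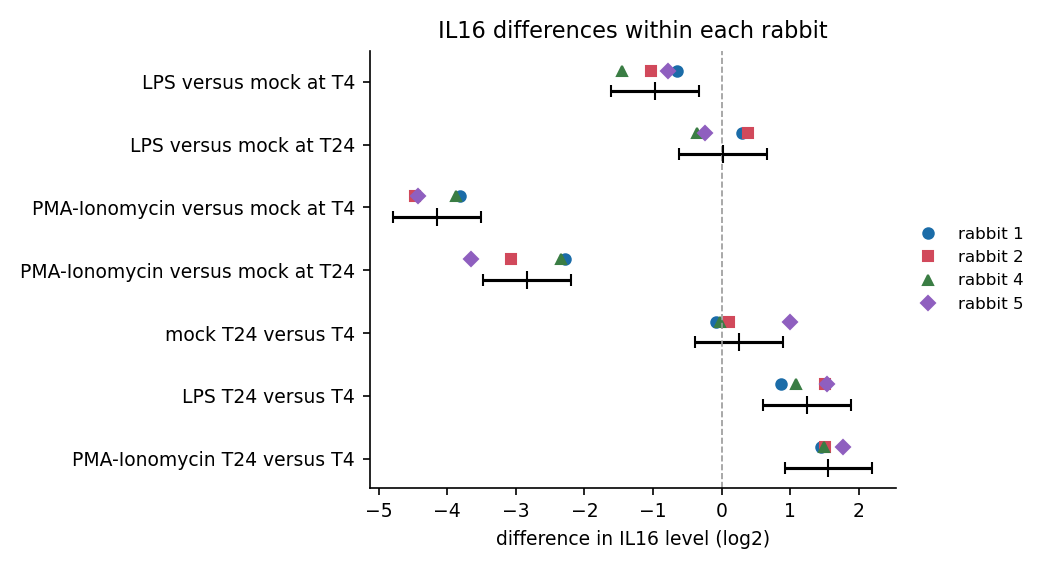
Differences in IL16 level (log2, horizontal axis) for 7 comparisons. Coloured symbols are single rabbits, and black bars give the mean difference of the fit with its 95% confidence interval. All rabbits lie left of 0 for LPS at T4 and for PMA-Ionomycin at both times, and on both sides of 0 for LPS at T24.

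The LPS cultures ask whether IL16 also differs under a bacterial stimulus. At T4 IL16 had a log2 fold change of -0.98 against mock cells (SE 0.31, 95% confidence interval -1.61 to -0.34), with an adjusted p of 0.121 by limma, above the threshold of 0.05. With the rabbit as a replicate block, in which each animal is compared with itself, the SE was 0.23 and the adjusted p by limma 0.0245. Both use the mock values on which IL16 was chosen, so neither is an independent test. Each of the 4 rabbits had less IL16 with LPS, the differences being -0.65, -1.02, -1.46 and -0.77 in rabbits 1, 2, 4 and 5, and the ranges of the groups did not overlap. Such a separation downwards was seen for 5.04% of all genes, and 1.02% of genes passed the test in either direction. Within slides, on which the groups come from partly different rabbits, the difference was -1.33, -1.28 and -0.73. With the slide as a block it was -1.01 (adjusted p = 0.123).

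At T24 no difference between LPS and mock cells was detectable (0.02, SE 0.31, 95% confidence interval -0.62 to 0.66, adjusted p = 0.998). IL16 was higher with LPS in rabbits 1 and 2, with differences of 0.30 and 0.38, and lower in rabbits 4 and 5, with -0.35 and -0.25. Within the slides the difference was -0.78, 1.20 and -0.48, and with the slide as a block 0.06 (adjusted p = 0.978). On no slide did the LPS and mock cultures come from the same rabbit, so the differences within slides are between animals. Over all genes 1.22% passed this test.

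In LPS cells IL16 rose from T4 to T24 by 1.25 (SE 0.31, 95% confidence interval 0.61 to 1.89, adjusted p = 0.00359). Fitted to the LPS arrays alone, the SE was 0.30 and the adjusted p by limma 0.0113. It rose in 4 of 4 rabbits, by 0.86, 1.51, 1.08 and 1.53 in rabbits 1, 2, 4 and 5, and its T24 range lay fully above its T4 range, as for 15.2% of all genes. This comparison moved many genes, since 16.7% of all genes passed the test as higher and 21% as lower, and the median of all genes was -0.19. The difference within slides was 0.89, 2.22 and 0.36, and with the slide as a block 1.28 (adjusted p = 0.0047). On no slide did the LPS cultures of T4 and T24 come from the same rabbit, so the differences within slides are between animals. The change of the LPS difference between the times, which sets the rise in LPS cells against that in mock cells, was 0.99 (SE 0.44, 95% confidence interval 0.09 to 1.90) with an adjusted p of 0.252, and it was above 0 in 4 of 4 rabbits. Of all genes 1.94% passed this interaction test. Within slides, again with partly different rabbits in the groups, the interaction was 0.55, 2.48 and 0.25, and with the slide as a block 1.07 (adjusted p = 0.21).

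Rabbit 5 had the highest IL16 level in 5 of 6 groups and the highest mean level of 6 B cell genes in 5 of 6, as it did for 5 platelet genes. The same rabbit had the lowest mean level of 10 monocyte genes in 6 of 6 groups and of 11 T cell genes in 5 of 6. It was also highest for 5 erythrocyte genes in 5 of 6, and lowest for 2 NK cell genes in 6 of 6 and for 26 interleukin genes in 5 of 6. What part these lists had in its IL16 level was not tested. In mock cells at T24, where rabbit 5 stood at 6.50 for IL16, its B cell genes had a mean level of 4.26 against 2.55, 2.91 and 3.09 in rabbits 1, 2 and 4. Rabbit 5 was also highest in this group for platelet (0.39) and erythrocyte genes (-0.08) and for genes of resting lymphocytes (2.83), which are read below. It was lowest there for monocyte (2.60), T cell (-0.005), NK cell (0.40) and interleukin genes (-0.25).

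Markers of the cell types of PBMCs were read beside IL16. After PMA-Ionomycin 13.4% of all genes rose and 9.35% fell at T4, and at T24 22.1% rose and 11.5% fell. Of 6 B cell genes measured, 3 fell and 1 rose at T4, and 4 fell and 1 rose at T24. MS4A1, which encodes CD20, fell by 1.70 (adjusted p = 4.53e-06) at T4 and by 2.63 (adjusted p = 2.39e-09) at T24. CD79B, a part of the B cell receptor, fell by 3.93 (adjusted p = 5.47e-06) at T4 but had a log2 fold change of -0.29 (adjusted p = 0.805) at T24. The kinase gene BLK rose by 1.56 (adjusted p = 0.00136) and 1.75 (adjusted p = 0.000243). The mean level of the list was 2.79 to 3.44 in mock cells and 1.78 to 2.21 in PMA-Ionomycin cells at T4, and 2.55 to 4.26 and 2.2 to 2.52 at T24.

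After PMA-Ionomycin 3 of 10 monocyte genes fell at T4 and 9 fell at T24, and none rose. CD14, the co-receptor for LPS, fell by 3.01 (adjusted p = 3.31e-07) and 3.27 (adjusted p = 3.2e-08). The study, in contrast, lists CD14 as unchanged after PMA-Ionomycin at both times, on its arrays and by quantitative PCR. The reason for this disagreement was not tested. The mean level of this list was 1.00 to 1.96 in mock cells and 0.68 to 1.17 in PMA-Ionomycin cells at T4, and 2.60 to 3.57 and 0.68 to 1.00 at T24. All 5 platelet genes, which mark cell fragments carried along with PBMCs, fell at T4, and their mean level was 2.33 to 3.49 in mock cells and 0.43 to 1.57 after PMA-Ionomycin. At T24, 2 of the 5 rose and 0 fell, with a median log2 fold change of 0.14, and neither of the 2 passed under all scalings. Of 11 T cell genes, 1 rose and 1 fell at T4, and 2 rose and 2 fell at T24, near the shares of all genes, and CD5 at T24 did not pass under all scalings. T cell genes had a mean level of 0.42 to 0.87 in mock cells and 0.44 to 0.82 in PMA-Ionomycin cells at T4. The part of any cell type in the IL16 difference was not tested.

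**Figure D3:**
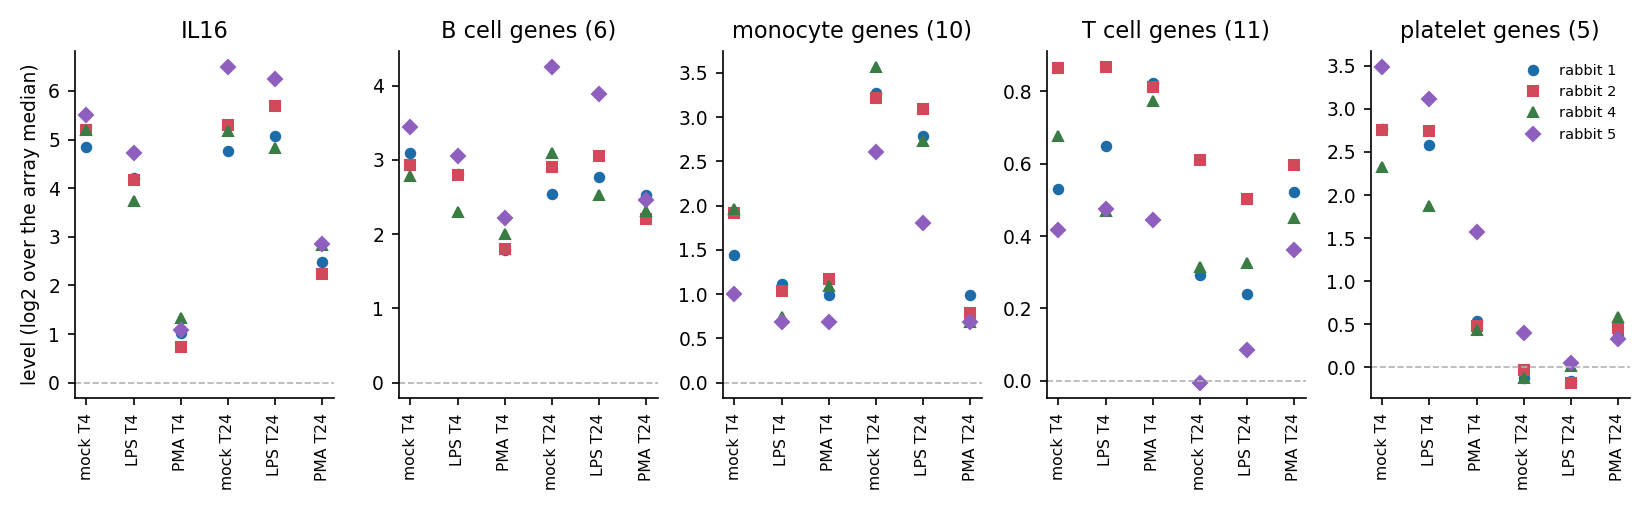
Level of IL16 and mean level of 4 marker gene lists (log2 over the array median, each panel with its own vertical axis) in the 24 samples, with the number of genes in brackets and 1 symbol per rabbit. IL16, the B cell genes and the platelet genes are highest in rabbit 5 in mock and LPS samples at both times. The platelet genes lie between -0.18 and 0.58 in all samples at T24.

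With LPS at T4, 2 of 10 monocyte genes fell, CD14 by 1.55 (adjusted p = 0.0374) and CSF1R by 1.44 (adjusted p = 0.0494, well above background on 3 of 4 LPS arrays), where 0.968% of all genes fell. Neither passed under all scalings. By limma 0 of 6 B cell genes and 0 of 11 T cell genes passed, with 0 and 2 at an unadjusted p under 0.05. The mean level of the monocyte genes was 0.69 to 1.11 in LPS cells. From T4 to T24 in LPS cells, where IL16 rose, 6 of 10 monocyte genes rose, 1 of 6 B cell genes rose, 3 of 11 T cell genes fell and all 5 platelet genes fell. Of all genes 16.7% rose and 21% fell here, so the B cell and T cell counts were near the background, and 1 call each of the monocyte (ITGAM), B cell (CD22) and T cell (CD8A) lists did not pass under all scalings. In mock cells 6 monocyte genes rose and 5 platelet genes fell over the same time, in which 7.43% of all genes rose and 5.16% fell. What part these had in the IL16 values was not tested.

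Of 10 genes whose products bind or answer to interleukin-16, 8 were found by name, and SKP2 and IL2RA were not. After PMA-Ionomycin at T4, 2 of 8 rose, 1 fell and 5 did not pass, where 13.4% of all genes rose and 9.35% fell, and the median log2 fold change of the 8 was 0.08 against 0.05 over all genes. At T24, 0 rose, 4 passed as lower and 4 did not pass, where 22.1% of all genes rose and 11.5% fell, and the median was -0.48 against 0.03. With the rabbit as a replicate block, 3 rose and 1 fell at T4, and 1 rose and 4 fell at T24. These counts and medians include CD4, whose 2 probes were not both well above background on any array. Without the block, 3 genes with a usable value fell at T24, namely CXCR4, CD9 and CDKN1B. With LPS, 0 of 8 passed at either time by limma, where 1.02% of all genes passed at T4 and 1.22% at T24. An unadjusted p under 0.05 was found for 4 of the 8 at T4 and 3 at T24, against 4017 and 3143 of all 28913 genes.

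The receptor CD4 gave no usable value, since on no array were both of its 2 probes well above background. Whether 1 of them was is not given here. Their log2 fold changes after PMA-Ionomycin at T24 were -1.27 and -0.05. CD9, a tetraspanin described as another receptor of interleukin-16, fell after PMA-Ionomycin at T24 by 1.61 (SE 0.36, adjusted p = 0.00107), whereas at T4 it had 0.97 (adjusted p = 0.0602), and the change between the times passed (-2.58, adjusted p = 0.000572), as it did for 22.5% of all genes. In mock cells CD9 rose between the times by 2.74 (adjusted p = 1.04e-05), from 3.16 to 5.04 at T4 to 6.64 to 7.24 at T24. LCK, the kinase held at the tail of CD4, had -0.45 (adjusted p = 0.111) at T4 and 0.11 (adjusted p = 0.785) at T24. With LPS at T4 LCK had -0.70 (adjusted p = 0.0761) and was lower in 4 of 4 rabbits. CXCR4, the receptor of the chemokine CXCL12 and with CD4 a co-receptor of HIV, had -0.45 (adjusted p = 0.168) at T4 and fell by 3.73 (SE 0.22, adjusted p = 6.15e-12) at T24. Its 5 probes lay between -3.79 and -3.68 at T24. CXCR4 thus stood at 5.11 to 6.25 in PMA-Ionomycin cells at T4, where IL16 was lowest, and at 2.05 to 2.57 at T24.

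Of the partners in the nucleus, HSPA8, a constitutive heat shock protein, rose at T4 by 1.44 (SE 0.32, adjusted p = 0.00164) and had 0.73 (adjusted p = 0.0913) at T24. GABPB1, a subunit of a transcription factor of the ETS family, rose at T4 by 0.80 (SE 0.15, adjusted p = 0.000209) and had -0.04 (adjusted p = 0.915) at T24, and its 3 probes disagreed in sign at T24. HDAC3, a histone deacetylase, had 0.06 (adjusted p = 0.915) and -0.30 (adjusted p = 0.24). CDKN1B, the cell cycle inhibitor p27, was the only gene of this list that fell at both times, by 1.29 (SE 0.21, adjusted p = 3.98e-05) at T4 and by 1.42 (SE 0.21, adjusted p = 5.82e-06) at T24. CDKN1B was at 3.13 to 3.85 in mock cells and 1.92 to 2.36 in PMA-Ionomycin cells at T4, and its 5 probes lay between -1.37 and -1.21. From T4 to T24 in LPS cells, where 16.7% of all genes rose and 21% fell, 3 of 8 rose and 1 fell. CD9 rose by 3.03 (adjusted p = 1.45e-06), HSPA8 by 1.45 (adjusted p = 0.00155) and HDAC3 by 1.20 (adjusted p = 2.22e-05), and GABPB1 fell by 0.41 (adjusted p = 0.0348). HDAC3 was well above background on 2 of 4 arrays of LPS cells at T4.

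**Figure D4:**
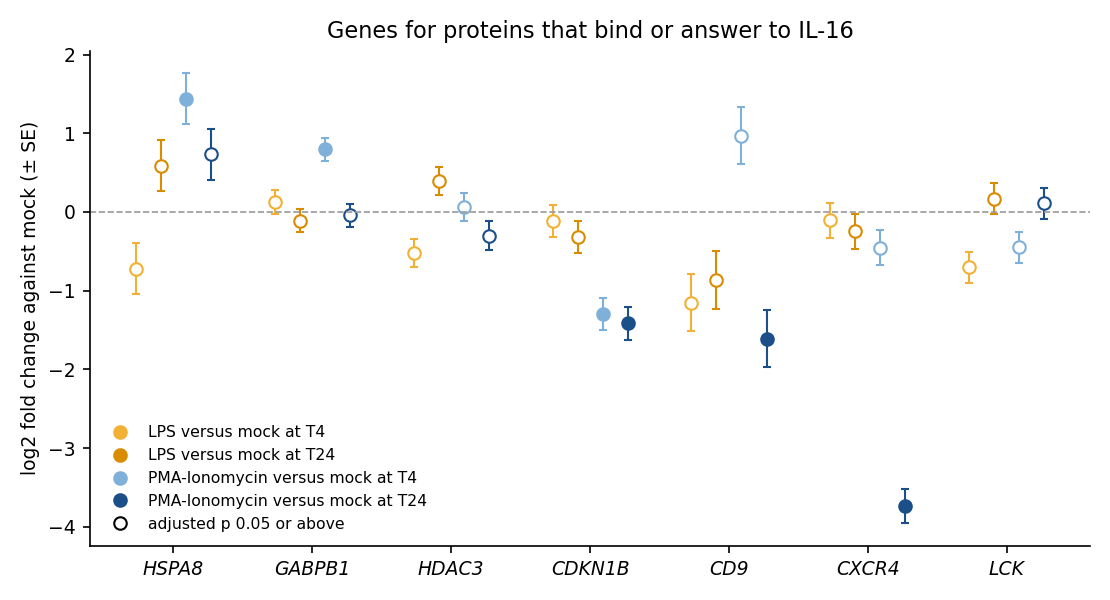
Log2 fold change against mock (vertical axis, ± SE of the fit) of 7 genes whose products bind or answer to interleukin-16, for LPS and PMA-Ionomycin at T4 and T24 (n = 4 per group). Filled symbols have an adjusted p under 0.05 and open ones do not. CXCR4 at T24 after PMA-Ionomycin shows the lowest value, and CDKN1B lies below 0 after PMA-Ionomycin at both times. CD4 is left out because its probes were not both well above background on any array.

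Of 26 other interleukin genes found, 10 rose, 5 fell and 11 did not pass after PMA-Ionomycin at T4, where 13.4% of all genes rose and 9.35% fell. The counts were the same at T24, where 22.1% of all genes rose and 11.5% fell, but 5 of these 15 calls (IL6, IL10, IL27, IL36G and IL37) did not pass under all scalings. Among those that rose at both times, IL4, which drives the Th2 fate, rose by 6.79 (adjusted p = 1.13e-11) and 4.33 (adjusted p = 4.03e-09). IL2, the growth factor of T cells, was not well above background in mock cells and was at least 39.4-fold higher at T4 (adjusted p = 1.75e-16) and at least 20.8-fold higher at T24 (adjusted p = 1.46e-14). IL13, a Th2 cytokine, was at least 137-fold higher at T4 (adjusted p = 1.97e-17). For such a bound the unmeasured group was put at the dimmest signal still well above background on each of its arrays.

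The interleukin genes that fell with PMA-Ionomycin at T4 were IL23A, IL37, IL36G, IL15 and IL18, none of which reached the size of the IL16 difference. IL16 was chosen for its fall here, so its larger size was favoured by that choice. IL23A, a subunit of interleukin-23, fell by 3.07 (SE 0.51, adjusted p = 7.46e-05) at T4 and fell by 3.01 (SE 0.51, adjusted p = 4.7e-05) at T24. IL37, an inhibitor of inflammation, fell by 2.40 (adjusted p = 2.66e-05) at T4. IL15, which keeps NK cells and memory T cells alive, fell by 1.23 (adjusted p = 0.033) and 1.39 (adjusted p = 0.00999). IL18 fell by 0.85 (adjusted p = 0.0456) at T4, which did not pass under all scalings, and had 0.73 (adjusted p = 0.0693) at T24. After PMA-Ionomycin at T4, IL37, IL15 and IL18 were each well above background on 2 of 4 arrays. At T24 IL1B, the main inflammatory cytokine of monocytes, fell by 3.4 (adjusted p = 0.00105), though in 3 of 4 rabbits. With LPS 2 of the 26 rose at T4, where 0.0553% of all genes rose, though neither (IL12A and IL23A) passed under all scalings, and 7 rose at T24, of which IL1A did not pass under all scalings, while 0 fell at either time. At T24 0.643% of all genes rose with LPS and 0.581% fell. IL23A and IL37, which fell after PMA-Ionomycin, rose with LPS at T24 by 3.70 (adjusted p = 0.000212) and 2.80 (adjusted p = 0.000122).

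Of 13 genes of resting lymphocytes, such as those for homing and quiescence, 10 were found. After PMA-Ionomycin at T4, 3 rose, 3 fell and 4 did not pass, with a median of -0.30, where 22.8% of all genes passed in either direction. At T24, 1 rose, 3 fell and 6 did not pass, with a median of -0.34, where 33.6% of all genes passed. BTG1, which restrains proliferation, fell by 0.75 (adjusted p = 0.00176) at T4 and 2.08 (adjusted p = 1.04e-09) at T24. TSC22D3, a target of glucocorticoids, fell by 0.69 (adjusted p = 0.0102) at T4 and was at least 2.50-fold lower at T24 (adjusted p = 2.82e-06). IL7R, the receptor chain for interleukin-7, had -0.38 (adjusted p = 0.566) at T4 and fell by 1.21 (adjusted p = 0.00643) at T24. CCR7, which guides cells to lymph nodes, rose at T4 by 1.37 (adjusted p = 4.7e-05). The transcription factor genes FOXP1 and BACH2 also rose at T4, by 1.11 (adjusted p = 2.83e-05) and 1.13 (adjusted p = 8.44e-06), with BACH2 well above background on 1 of 4 mock arrays. TCF7, a transcription factor of naive T cells, was at least 1.43-fold lower at T4 (adjusted p = 0.0433). With LPS, 0 of 10 passed at either time by limma, where 1.02% and 1.22% of all genes passed, and 0 at T4 and 1 at T24 had an unadjusted p under 0.05.

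The genes whose profile over the 24 arrays was most like that of IL16 were searched among 6272 genes by Pearson correlation of their levels. All arrays share rabbits and the strong effect of PMA-Ionomycin, so these are descriptions without a test. The closest were C1orf38 (r = 0.98), the older symbol of THEMIS2, which acts in B cell receptor signalling, and TNFAIP8L2 (r = 0.97), which dampens immune receptor responses. PRKD2, a protein kinase D that answers to diacylglycerol and PMA, followed with r = 0.97. MYRFL, B3GNT7, FGD3, USF1, SYK, SLC44A2 and DENND1C had r between 0.95 and 0.96. SYK is the kinase next to the B cell receptor, USF1 is a transcription factor, and SLC44A2 a choline transporter. At T4 the log2 fold change after PMA-Ionomycin was -3.92 for MYRFL, -3.83 for C1orf38 and -3.63 for TNFAIP8L2, and B3GNT7 followed with -2.54, against -4.14 for IL16. After PMA-Ionomycin at T4, MYRFL, C1orf38, FGD3 and USF1 were well above background on 3 of 4 arrays. The 3 probes of MYRFL ranged from -4.78 to -2.32. At T24 MYRFL (-3.51), TNFAIP8L2 (-3.14) and C1orf38 (-3.10) were lower than IL16.

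For the genes most like IL16 over 24 arrays, likeness among animals was read in the deviations from the group means. After removal of the group means their r with IL16 was 0.62 for MYRFL to 0.90 for PRKD2, where the median of all 6272 genes was 0.14 and the highest 0.96. Over the 16 mock and LPS arrays alone, the 5 closest genes were ADARB1, ING1, ACAP1, WDR59 and PYGB, with r between 0.96 and 0.97. Over all 24 arrays r was 0.94 for ACAP1, a regulator of endosomal recycling in lymphocytes, 0.82 for PYGB and 0.48 for ADARB1. For ACAP1 the log2 fold change after PMA-Ionomycin was -1.76 at T4 and -1.87 at T24. ING1, a chromatin reader, and WDR59 had 0.38 and 0.39 at T4, and their r with IL16 over 24 arrays was -0.06 and -0.01. ADARB1, an RNA editing enzyme, had -0.02 at T4 and -1.24 at T24. PYGB, a glycogen phosphorylase, had -0.80 and -0.65.

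**Figure D5:**
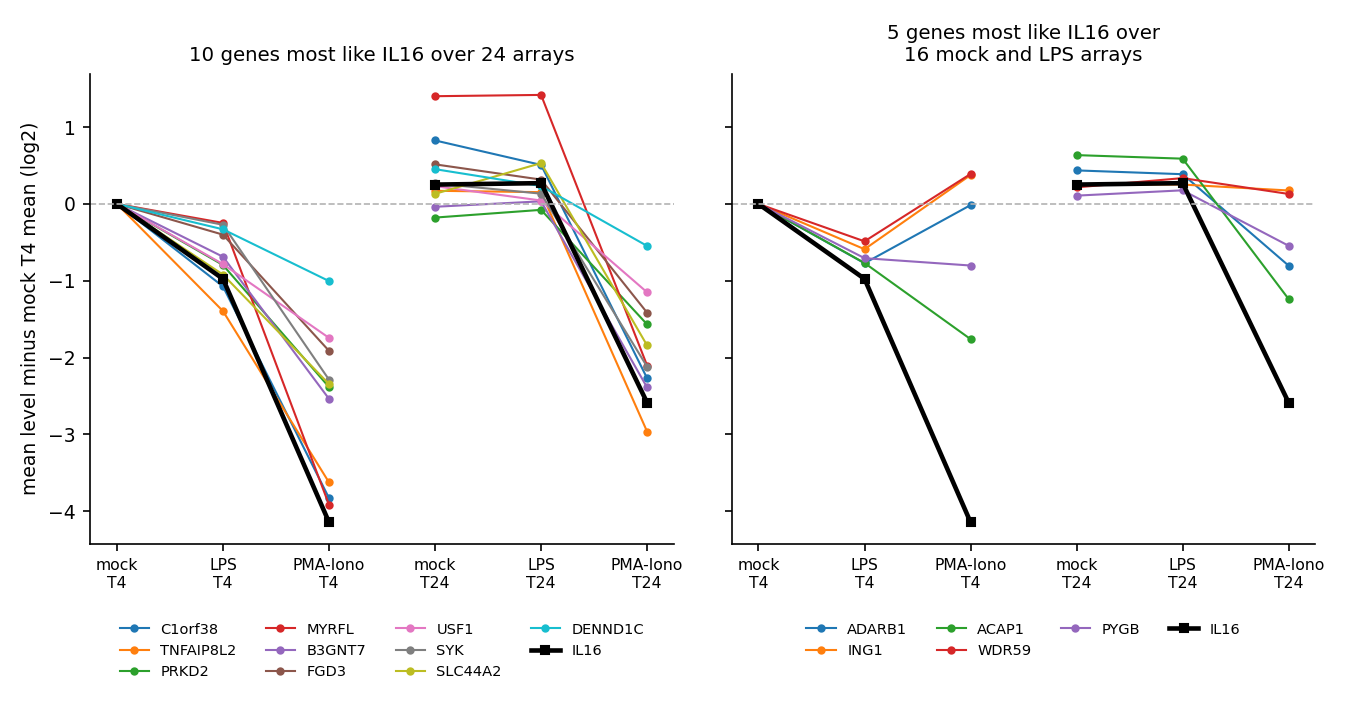
Mean level of each gene minus its mean in mock cells at T4 (log2, vertical axis) in the 6 groups, for the 10 genes most like IL16 over 24 arrays (left) and the 5 most like it over 16 mock and LPS arrays (right), with IL16 in black. The genes on the left share the low values after PMA-Ionomycin, and on the right ING1 and WDR59 lie above 0 there.

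Of the genes next to IL16 in the order of the RefSeq gene table, 5 on each side that have a probe were read, namely ADAMTSL3, SAXO2, EFL1, MEX3B and TMC3, and CFAP161, MESD, ABHD17C, ARNT2 and FAH. In mock cells at T4, 6 of these 10 were not well above background on any array, so a fall could not be seen in them, and no median is read. After PMA-Ionomycin at T4, 3 of 10 rose and 0 fell, where 13.4% of all genes rose and 9.35% fell. These were EFL1, a ribosome maturation factor, by 0.62 (adjusted p = 0.00132) with 2 of 4 mock arrays well above background, MESD, a chaperone of LRP receptors, by 0.79 (adjusted p = 0.00626), and FAH, an enzyme of tyrosine breakdown, by 0.44 (adjusted p = 0.0146), which did not pass under all scalings. At T24 FAH fell by 0.84 (adjusted p = 1.43e-05) and the other 9 did not pass, where 22.1% of all genes rose and 11.5% fell.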

How the data were processed

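PBMC RNA of 24 cultures was measured on one-colour Agilent arrays. The authors deposited scanner output made with Feature Extraction 10.7.3.1, in which median, mean and background signals are spot intensities not scaled from array to array. They also deposited log2 values in a table, which differs from the log2 median signal by a constant of each array. Control spots and spots marked as outliers were left out. Log2 median signals, with no background subtracted, were centred on the median of each array as in the methods. Spots, then probes of a gene, were averaged. Probe names come from the RefSeq gene table (mOryCun1.1) and the study's immune gene list, and the IL16 probe by its gene number. Groups were compared with limma 3.58.1 in R 4.3.3, fitting 6 group means, no block, and Benjamini-Hochberg adjustment over 28913 genes. A gene was called under an adjusted p of 0.05. Python 3.11.15 and matplotlib 3.10.9 drew the plots. The steps were tested on simulated data.

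IL16 and all gene lists were chosen with earlier results of these data known. Some genes of these lists are not reported here and were left out of list counts and means. Named were IL16, the listed genes found, the 10 genes most like IL16 over 24 arrays and 5 over mock and LPS arrays, and the 5 nearest genes with a probe on each side. Values of T cell, B cell, NK cell, monocyte, platelet, neutrophil and erythrocyte lists were read, of which 2 NK cell, 7 neutrophil and 5 erythrocyte genes were found. After PMA-Ionomycin at T4, 1, 3 and 0 of these fell and 0 rose, and at T24 2, 0 and 0 rose and 0, 5 and 1 fell. Of all genes 13.4% rose and 9.35% fell at T4, and 22.1% and 11.5% at T24. Neither NK cell call at T24 passed under all scalings. Rabbit numbers mark the same animals, so samples are paired. The median correlation of deviations from group means was 0.228 for 60 array pairs of 1 rabbit and -0.0749 for 180 pairs of different rabbits. Alternatives were other scalings, background correction, the deposited log2 table, filters on dim and outlier spots, rabbit or slide as a block, only the arrays compared, another variance model, single probes, and leaving out each rabbit. The number of arrays limits the precision.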

Additional observations from a re-analysis of the deposited data

Results flagged for a closer look

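The PMA-Ionomycin difference from mock changed between T4 and T24, by limma's interaction test, for 3 of the 8 genes whose products bind or answer to interleukin-16, among which CD4 had no usable value. Of all genes 22.5% passed this test. CD9 changed by -2.58 on the log2 scale (adjusted p = 0.000572), GABPB1 by -0.84 (adjusted p = 0.00402) and CXCR4 by -3.28 (adjusted p = 3.66e-08), each lower in 4 of 4 rabbits. By Dixon's test no IL16 level or difference of a rabbit was an outlier. Each test had only 4 values, so it does not show that the rabbits were alike. In mock cells the IL16 difference between the times was 1.00 in rabbit 5, against -0.08, 0.11 and -0.02 in rabbits 1, 2 and 4. The change of the PMA-Ionomycin difference of IL16 between the times was 0.77 in rabbit 5, against 1.53, 1.40 and 1.52.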

How the results depend on the processing

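The IL16 differences kept their direction and their side of the threshold in nearly all alternatives. With the rabbit as a replicate block, which pairs the cultures of an animal, the same LPS difference at T4 of -0.98 fell under the threshold (adjusted p = 0.0245), in a comparison with the mock values on which IL16 was chosen, and no other IL16 call changed. Over its alternatives that adjusted p ran from 0.0245 to 0.665. Leaving out each rabbit gave -1.08 to -0.82 for LPS at T4, -0.10 to 0.14 for LPS at T24, 0.00 to 0.36 for mock T24 against T4, 1.15 to 1.37 for LPS T24 against T4, 0.86 to 1.15 for the LPS interaction, -4.25 to -4.04 for PMA-Ionomycin at T4 and -3.02 to -2.57 at T24. The LPS value at T24 turned below 0 without rabbit 1 (-0.07) or rabbit 2 (-0.10), both within its error. The mock value over time was 0.00 without rabbit 5. With scaling of processed signals to the 75th percentile, PMA-Ionomycin at T4 moved to -4.66, or -4.51 relative to the median of all genes, which that scaling moved from 0.05 to -0.16. Relative to that median it was -4.19 in the main fit. Processed signals also differ from median signals where a spot is dim, with 71.9 against 109 for IL16 in PMA-Ionomycin cells of rabbit 2 at T4. The same scaling gave 7 in place of 4 resting lymphocyte genes called at T24 after PMA-Ionomycin. Called genes for partners of interleukin-16 ranged from 3 to 5 at both times, with 5 in place of 3 at T4 without rabbit 1, and interleukin genes from 11 to 15 at T4 and 10 to 17 at T24. Over all genes, calls for LPS at T4 went from 296 to 1228 with the rabbit block, to 12 with the processed signal, to 71 to 117 with quantile scaling, normexp, the deposited table, a trended variance, or without rabbit 1 or 5, and to 0 without rabbit 2, without rabbit 4 or with only the arrays compared, where 3180, 2101 and 3528 genes had an unadjusted p under 0.05. For LPS at T24 they went from 354 to 758 with the block, 618 without rabbit 5, 110 without rabbit 2, 86 without rabbit 4 and 47 with only the arrays compared, and for LPS T24 against T4 from 10882 to 6653 without rabbit 2 and 7157 without rabbit 4. The share of calls that were higher after PMA-Ionomycin was 59% at T4 and 65.8% at T24, and 47% and 46.3% with the processed signal, where lower calls at T24 went from 3324 to 5433. For LPS T24 against T4 it was 44.3%, then 32.3% with the processed signal and, without dim probes, 61%. No called list gene changed direction under another scaling in the 6 comparisons searched. The causes of these shifts were not tested.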
